A study of Mus musculus with 28 samples.

Results

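Periosteal skeletal stem/progenitor cells (pSSPCs) were compared between conditional *Zmpste24* knockout (CKO) mice and control mice by bulk RNA-seq. This comparison used 6 of the 28 libraries of the series, 3 of control and 3 of CKO pSSPCs, chosen by population, assay and genotype as given in the sample titles. All came from mice 20 weeks old. The cells were dissociated from the periosteum of long bones and sorted as Prx1-Ai9+ Sca1+ CD45- Ter119- CD31- cells, and each library was made from 1000 cells with a modified Smart-seq2 protocol that marks molecules with unique identifiers. CKO mice carried Prx1Cre and Z24fl/fl, in which exon 6 of *Zmpste24* (called *Z24* in the study) is flanked by loxP sites, and controls were described as littermates of the same sex. Mice were on the C57BL/6 background. The genotype field of the labels reads PrxCre; Z24fl/fl for both groups, so the groups rest on the titles. A sort on Ai9 needs Cre in the controls too, but the *Z24* alleles of these control libraries are not given in the sources used here. Prx1Cre is active in early limb mesenchyme, and the Ai9 allele makes a cell and all its progeny fluoresce red once Cre has acted, so recombination was not limited to pSSPCs. How many mice gave each library is not stated in the sources used here, so the spread between these libraries may be technical. The p-values below rest on that spread, which the tests share across genes.

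*Zmpste24* is the zinc metalloprotease that cuts the farnesylated tail from prelamin A, the last step in making mature lamin A. When it is missing, prelamin A stays at the nuclear membrane, and mice that lack the enzyme in all cells age prematurely and lose bone. The periosteum is the sheath on the outer face of bone, and its Sca1+ mesenchymal cells can give rise to bone and cartilage. They also make much of the surrounding matrix, of small proteoglycans such as decorin, collagens and glycoproteins.

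The libraries held 1333260, 3040833 and 4970995 counts in control replicates 1, 2 and 3 and 1875248, 3264327 and 5315709 counts in the CKO replicates. At an equal depth of 1333260 counts, 12082, 14435 and 14245 genes were detected in control replicates 1, 2 and 3, compared with 12198, 14868 and 14715 in the CKO replicates. Replicate 1 of both groups therefore held fewer genes at the same depth. It also held less of the nuclear transcript *Malat1*, at 0.415% of control and 0.516% of CKO counts, whereas the other libraries held 2.13% to 2.48%. Mitochondrial transcripts made up 2.85% and 3.86% of replicate 1 and 1.39% to 1.79% of the others. Replicates 2 and 3 of a group agreed within sampling noise over genes with 5 to 99 counts, where chi-square divided by its degrees of freedom was 0.972 for control and 0.881 for CKO. Any comparison with replicate 1 gave 12.9 to 14.3. Among genes with 20 counts or more, the value was 1.91 for control and 1.92 for CKO, so over these genes replicates 2 and 3 did differ beyond sampling noise, though by far less than from replicate 1 (53.2 to 63.4). Given this closeness, the counts of replicates 2 and 3 were added up and treated as a single sample, and each genotype had n = 2 samples. The replicate number paired control and CKO libraries, so every gene had a log2 ratio in the replicate 1 pair and another in the summed pair of replicates 2 and 3. The ratio is log2((CKO + 1)/(control + 1)) of TMM-normalised read counts scaled to library size (CPM), and 0 means no difference.

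*Zmpste24* itself had 1, 51 and 84 counts in control replicates 1, 2 and 3 and 0, 28 and 41 counts in the CKO replicates. These counts correspond to 0.785, 17.1 and 17.2 CPM in control and 0, 8.34 and 7.5 CPM in CKO. The gene was lower in each CKO library than in its control, with a log2 ratio of -1.04 in the summed pair, but replicate 1 held too few counts to tell the genotypes apart. The counts cover the whole gene, so they do not show whether exon 6 was removed. *Ly6a*, which encodes the sort marker Sca1, was at 1164, 2909 and 2919 CPM in control and 1184, 2961 and 3019 CPM in CKO, and its log2 ratios were 0.03 and 0.04. The periosteal progenitor genes *Dcn* and *Igfbp6* were detected in all 6 libraries at the levels given below. *Xist* was present and the Y-linked genes were at or near 0 CPM in all 6 libraries, so no library differed from the others in sex.

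In CKO pSSPCs, individual genes differed in the same direction in both pairs, some higher and some lower. The lubricant gene *Prg4* had log2 ratios of 1.75 and 1.71 in the pairs, well over 2-fold. The hyaluronan synthase gene *Has1*, the protease inhibitor genes *Timp1* and *Slpi*, and the cell cycle regulator gene *Rgcc* were more than 2-fold higher in both pairs. The actin-severing gene *Gsn*, the proteoglycan gene *Dcn*, the growth factor binding gene *Igfbp6* and the glycoprotein gene *Myoc* were lower in both pairs, by log2 ratios between -1.45 and -0.74.

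Across the transcriptome these differences stood against a large spread between replicate 1 and the other replicates. When the 4 samples were tested with edgeR (quasi-likelihood) and no block, none of 11878 genes passed an adjusted p of 0.05 (0.0% called), and 142 had an unadjusted p under 0.05. DESeq2 also called 0 genes after adjustment, with 318 at an unadjusted p under 0.05. By the criteria of the study (p under 0.05 without adjustment, log2 fold change beyond 0.25 in either direction), 31 genes were higher (0.261%) and 111 were lower (0.935%) in CKO in this fit of 4 samples. The counts depend on the fit: they were 404 and 402 with each library as a sample, 245 and 376 with the replicate block on the 4 samples, and 68 and 250 with DESeq2. With the replicate number as a block, 12 genes rose (0.101%) and 26 fell (0.219%) at an adjusted p under 0.05. That fit leaves 1 residual degree of freedom, so its errors lean on the spread shared by all genes. Its SEs and p-values hardly measure a gene's own spread between the pairs, and genes whose pairs disagree can pass, as *Lipa* did. Below, "rose" and "fell" refer to this blocked test, and adjusted p-values come from it except in the comparison with growth plate progenitors, which used an interaction test.

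The pairs themselves were compared over the 6569 genes with a mean of at least 10 CPM in each pair. In both pairs, 113 genes (1.72%) were at least 2-fold higher and 145 genes (2.21%) at least 2-fold lower in CKO. In 183 genes (2.79%) the pairs differed at least 2-fold in opposite directions, more than in either concordant group. With no minimum ratio, 1676 genes (25.5%) were higher and 1804 (27.5%) were lower in both pairs, so 53% had the same sign. Most of the concordant genes were scarce: 90 of the 113 and 90 of the 145 lay between 10 and 30 CPM in their lower pair, where 147 genes were discordant. Discordance was rarer among abundant transcripts. Of the 1336 genes at 100 CPM or more, 5 were at least 2-fold higher (0.374%), 9 at least 2-fold lower (0.674%) and 1 discordant (0.0749%). The discordant gene was *Tent5a*, which encodes a poly(A) polymerase, at 144, 191 and 202 CPM in control and 568, 93.9 and 99.2 CPM in CKO. The share of genes with the same sign was 57.5% at 100 CPM, 64.9% at 300 CPM and 65.9% at 1000 CPM. The correlation of the ratios between the pairs, a description across genes within these libraries, was 0.0805 over all 6569 genes and 0.657 over the 82 genes at 1000 CPM or more.

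**Figure D1:**
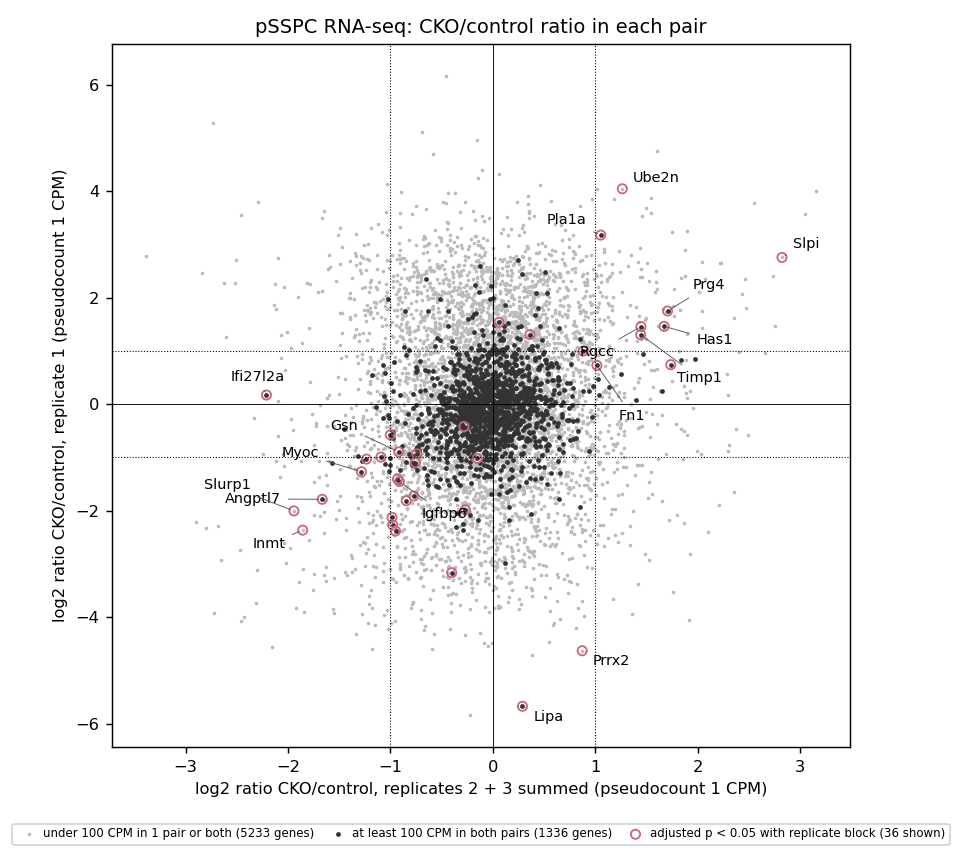
Log2 ratio of CKO to control pSSPCs in the summed pair of replicates 2 and 3 (x axis) and in the replicate 1 pair (y axis), 1 point per gene for the 6569 genes at 10 CPM or more. Black points mark the 1336 genes at 100 CPM or more, red rings the 36 genes with an adjusted p under 0.05 with the replicate block that are in this set, and dotted lines a 2-fold ratio; *Prg4*, *Has1*, *Rgcc* and *Timp1* lie in the upper right, whereas *Lipa* and *Prrx2* are far from 0 in 1 pair.

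**Figure D2:**
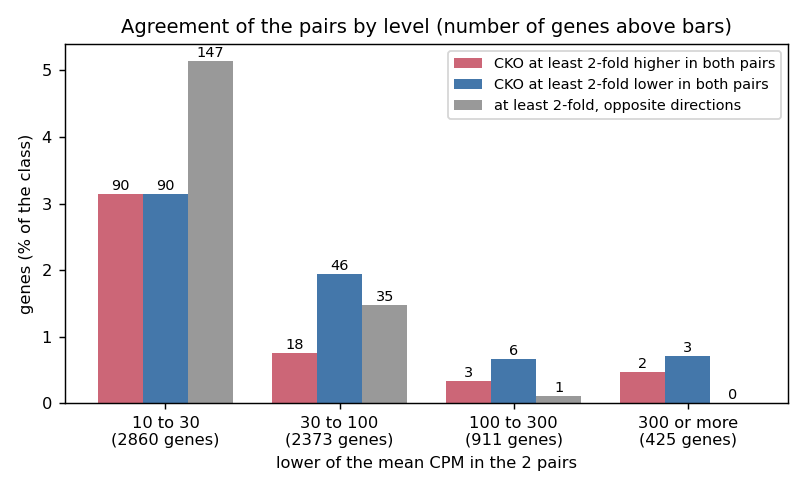
Percentage of genes (y axis) that were at least 2-fold higher in CKO in both pairs, at least 2-fold lower in both pairs, or at least 2-fold in opposite directions, by the lower of the gene's mean CPM in the 2 pairs (x axis), with the number of genes above each bar. The grey bar for opposite directions pools both orders of sign, whereas higher and lower concordant genes have separate bars. It is the tallest at 10 to 30 CPM, with 147 genes, and falls to 1 gene at 100 to 300 CPM and 0 genes above.

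*Prg4* encodes lubricin, the mucin-like proteoglycan that coats joint surfaces. It was at 2179.6, 9054 and 9116 CPM in control replicates 1, 2 and 3 and at 7324, 27583 and 30974 CPM in the CKO replicates. Each CKO library was above its own control, although CKO replicate 1 lay below control replicates 2 and 3, so the groups overlapped unless the pairing was kept. *Prg4* rose with a log2 fold change of 1.70 ± 0.09 (SE; adjusted p = 7.1e-72). Without the block the estimate was 1.71 ± 0.74 with an unadjusted p of 0.0449 by edgeR. In CKO replicates 2 and 3 it held 2.84% and 3.18% of all counts, more than any other gene.

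*Has1* encodes a synthase that makes hyaluronan, the long sugar polymer of synovial fluid and loose connective tissue. It was at 129, 303 and 279 CPM in control and 356, 947 and 904 CPM in CKO, and rose with a log2 fold change of 1.54 ± 0.32 (SE; adjusted p = 0.00155). *Hbegf*, a membrane-bound ligand of the EGF receptor, was at 346, 469 and 437 CPM in control and 579, 1452 and 1531 CPM in CKO and rose by 1.21 ± 0.26 (SE; adjusted p = 0.00213). For *Hbegf* the 3 CKO libraries were all above the 3 control libraries, but the difference was smaller in the replicate 1 pair (0.74) than in the summed pair (1.74). Here and below, a lack of overlap counts replicates 2 and 3 apart, though they were treated as a single sample. It describes these libraries only, and the share of all genes without overlap was not counted.

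*Prg4*, *Has1* and *Hbegf* are 3 of 8 genes listed as markers of the synovial lining fibroblast, the cell that secretes lubricin and hyaluronan into the joint. Of the 8, 6 were higher in both pairs, 4 of them at least 2-fold, and none was lower in both, beside 25.5%, 1.72% and 27.5% of all measured genes. The remaining 2-fold genes were *Tspan15*, a tetraspanin that escorts the sheddase ADAM10, and *Col22a1*, a collagen of tissue junctions. *Tspan15* was at 76.2, 38.1 and 35.6 CPM in control and 212, 113 and 115 CPM in CKO. *Col22a1* was at 16.5, 44.1 and 39.9 CPM in control and 92.2, 150.2 and 158 CPM in CKO. Both were higher in every CKO library than in the control of the same number. The other markers were less even: *Clic5* had log2 ratios of -0.08 and 1.96, *Htra4* of 0.24 and 1.66, and *Cd55*, a shield against complement, of 1.02 and -0.34. The list's median log2 ratio was 1.24 in the replicate 1 pair and 1.69 in the summed pair, beside 0.02 and -0.03 over all measured genes, and 3 of 8 genes rose, beside 0.101% of all genes tested. This list, like every list here, was chosen with earlier results of these data known. Its shares are therefore a description and not a test. The summed level of the 8 markers was 3036, 10330.0 and 10321 CPM in control replicates 1, 2 and 3 and 8934, 31075 and 34551 CPM in the CKO replicates, most of it *Prg4*. In bulk samples, more cells of a type and more RNA per cell cannot be told apart, and the part of such cells in these differences was not tested.

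Of the other genes that rose, *Rgcc*, a regulator of cell cycle kinases, was at 949, 919 and 833 CPM in control and 2605, 2388 and 2348 CPM in CKO, with no overlap between the groups and nearly equal ratios in the pairs (1.46 and 1.45). It rose by 1.42 ± 0.19 (SE; adjusted p = 7.19e-11). *Timp1*, an inhibitor of matrix metalloproteinases, was at 171, 283 and 265 CPM in control and 424, 745 and 739 CPM in CKO and rose by 1.35 ± 0.33 (SE; adjusted p = 0.0174). Every CKO library was above every control library for *Timp1* as well. *Fn1*, which encodes fibronectin, the fibrillar glycoprotein of healing tissue, was at 2649, 3352 and 3083 CPM in control and 4390.1, 6424 and 6461 CPM in CKO and rose by 0.84 ± 0.13 (SE; adjusted p = 3.23e-07). The chemokine gene *Cxcl14* was at 1022, 1169.8 and 1006 CPM in control and 2040.2, 2192 and 1836 CPM in CKO and rose by 0.91 ± 0.19 (SE; adjusted p = 0.00181). Both genes were below 2-fold in at least 1 pair, and their groups did not overlap.

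*Pla1a*, which encodes a phosphatidylserine-specific phospholipase, was at 21.2, 174 and 175 CPM in control and 199, 351 and 371 CPM in CKO (adjusted p = 0.0071), so its ratio was much larger in the replicate 1 pair. *Ube2n*, an E2 enzyme that builds lysine-63 ubiquitin chains, was at 12.6, 56.5 and 46.4 CPM in control and 223, 154 and 103 CPM in CKO (adjusted p = 0.0254). For *Ube2n*, replicate 1 was the highest of the CKO libraries and the lowest of the controls. The genes named by their blocked p or by their level in this and the following paragraphs were chosen after their values were seen, except where the rule in the methods names them.

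*Slpi* encodes a secreted inhibitor of neutrophil elastase that is best known from mucosal epithelia. It was at 2.36, 33.1 and 31.1 CPM in control replicates 1, 2 and 3 and at 21.6, 235 and 229.6 CPM in the CKO replicates. The ratios were large and close (2.75 and 2.82) although the level in replicate 1 was far lower in both genotypes, so CKO replicate 1 lay below control replicates 2 and 3. Control replicate 1 held 3 counts and CKO replicate 1 held 42. The replicate 1 pair counts as measured only through CKO, and its ratio depends on the pseudocount. *Slpi* rose by 2.96 ± 0.77 (SE; adjusted p = 0.0424). Among the 113 genes at least 2-fold higher in both pairs it was the only one whose start had an ATAC-seq peak in all 3 CKO and in no control library of pSSPCs sorted in the same way. The 250 bases before the RefSeq start of *Slpi* are shown because they lie within the peak of each CKO library (GRCm38.p6, chr2:164356508-164356757, minus strand). The lowest GENCODE start of *Slpi* that the peaks reached was at chr2:164356067, and any further starts they reached are not listed here.

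Slpi: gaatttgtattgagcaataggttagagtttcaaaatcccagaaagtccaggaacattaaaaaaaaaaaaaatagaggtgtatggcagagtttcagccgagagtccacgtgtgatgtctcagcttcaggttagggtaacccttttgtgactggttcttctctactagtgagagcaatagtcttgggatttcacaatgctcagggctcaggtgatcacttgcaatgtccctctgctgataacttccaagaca

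The sequence is in lower case throughout since none of the 3 motifs searched, given with the interferon genes below, was found in it. The peaks were at chr2:164356418-164357090 in CKO replicate 1, chr2:164356254-164357190 in replicate 2 and chr2:164356143-164357205 in replicate 3 (mm10), with -log10 q-values of 4.06, 10.7 and 24.5. The weakest of them would not pass a minimum of 10, and with that minimum *Slpi* no longer had the pattern, while 1 other of the 113 higher genes had it and 1 of the 145 lower genes had the reverse. The number of peaks differed between libraries, with 63516, 59209 and 79724 in control replicates 1, 2 and 3 and 72375, 84042 and 101606 in the CKO replicates. Such a pattern, a peak within 500 bases of a gene's start in all 3 CKO and in no control library, was found for 7 of 6565 measured genes (0.107%), and the reverse for 1 gene (0.0152%). The share of starts with a peak in all 6 libraries was 94.5% over all measured genes, 88.5% for the 113 higher genes and 89.7% for the 145 lower genes. The starts of *Prg4*, *Rgcc*, *Has1*, *Fn1*, *Gsn*, *Dcn*, *Igfbp6* and *Inmt* had a peak in all 6 libraries, whereas the start of *Myoc* had none in any.

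**Figure D3:**
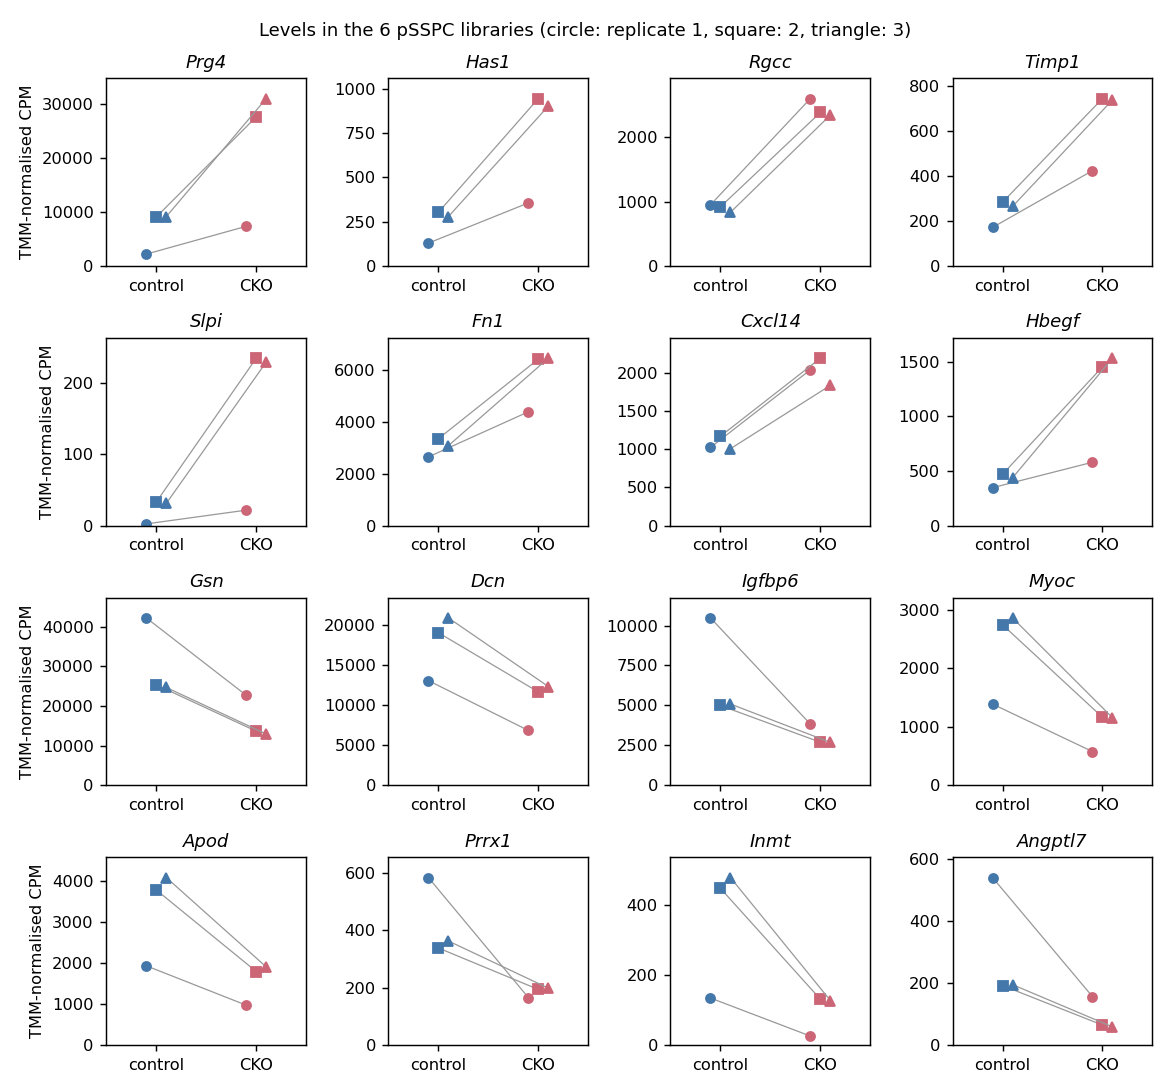
TMM-normalised CPM (y axis, linear, from 0) of 16 genes in the 3 control (blue) and 3 CKO (red) pSSPC libraries, with grey lines joining libraries of the same replicate number. All 8 genes of the upper rows are higher and all 8 of the lower rows are lower in CKO along every line, while the level in replicate 1 (circles) is often far from that in replicates 2 and 3.

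The genes that fell included *Gsn*, which held 4.03% of all counts in control replicate 1. *Gsn* encodes gelsolin, which severs and caps actin filaments. It was at 42231, 25328 and 24670.2 CPM in control and 22691, 13636 and 12912 CPM in CKO, with log2 ratios of -0.90 and -0.92, and it fell with a log2 fold change of -0.94 ± 0.07 (SE; adjusted p = 7.38e-42). The groups did not overlap, although CKO replicate 1 came close to control replicates 2 and 3. *Dcn* encodes decorin, a small leucine-rich proteoglycan that binds collagen fibrils and TGF-beta. It was at 13021, 18988 and 20829 CPM in control and 6822, 11611 and 12286 CPM in CKO, with no overlap, and fell by 0.87 ± 0.09 (SE; adjusted p = 3.7e-20).

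*Igfbp6*, which encodes a binding protein of insulin-like growth factor 2, was at 10482, 4994 and 5086 CPM in control and 3826, 2691 and 2683 CPM in CKO. It fell by 1.21 ± 0.12 on the log2 scale (SE; adjusted p = 2.42e-20), and all 3 CKO libraries were below all 3 controls. *Myoc* encodes myocilin, a secreted glycoprotein best known from the outflow tissue of the eye. It was at 1391, 2749 and 2867 CPM in control and 577, 1163 and 1157 CPM in CKO and fell by 1.31 ± 0.20 (SE; adjusted p = 5.65e-08). The lipid carrier gene *Apod* was at 1929.950, 3779.8 and 4083 CPM in control and 969, 1790.3 and 1903 CPM in CKO and fell by 1.07 ± 0.17 (SE; adjusted p = 3.23e-07). For both genes the ratios were nearly equal in the pairs, at -1.27 and -1.28 for *Myoc* and -0.99 and -1.09 for *Apod*.

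*Prrx1* encodes the limb mesenchyme transcription factor whose enhancer drives Prx1Cre. It was at 584, 338 and 363 CPM in control and 165, 194 and 198 CPM in CKO, with no overlap between the groups, and fell by 1.36 ± 0.35 (SE; adjusted p = 0.0417). *Inmt*, a methyltransferase of indole amines, was at 134, 448 and 479 CPM in control and 25.2, 131 and 127 CPM in CKO (adjusted p = 0.00161). *Angptl7*, a secreted angiopoietin-like glycoprotein, was at 541, 192 and 195 CPM in control and 156, 64.1 and 58.2 CPM in CKO (adjusted p = 0.0053). *Slurp1*, a secreted protein of the Ly6 family, was at 356, 74.2 and 80.6 CPM in control and 88.1, 19.4 and 19.8 CPM in CKO (adjusted p = 0.0254). The log2 ratios of these 3 genes lay between -2.37 and -1.66, and each CKO library was lower than the control of its number. *Rarres2*, which encodes the adipokine chemerin, was at 864, 698 and 615 CPM in control and 422, 307 and 254 CPM in CKO (adjusted p = 0.0174).

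The other genes that fell with lower CKO levels in both pairs included *Serpinf1*, which encodes pigment epithelium-derived factor (log2 ratios of -1.10 and -0.76), the glutathione transferase gene *Gstm1* (-1.41 and -0.93), and the extracellular glutathione peroxidase gene *Gpx3* (-1.02 and -0.15). The enkephalin precursor gene *Penk* had ratios of -2.38 and -0.95, and the spectrin gene *Sptbn1* of -1.72 and -0.77. The transcription factor gene *Ebf1* (-0.58 and -1.001), the cystatin C gene *Cst3* (-0.42 and -0.28), the respiratory chain gene *Ndufb7* (-1.98 and -0.27), *Cggbp1* (-3.16 and -0.40) and the predicted genes *Gm28875* and *Gm43457* were in the same group. *Gm43457* was scarce, with means of 3.14 and 4.62 CPM in the pairs, under the minimum of 10 CPM used for pair ratios. *Gpx3*, *Ndufb7* and *Cggbp1* differed mainly in the replicate 1 pair.

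For 4 of the 26 genes that fell the pairs went opposite ways, so the call rests on 1 pair. *Lipa*, the lysosomal acid lipase gene, was at 470.3, 228 and 162 CPM in control and 8.24, 279 and 198 CPM in CKO, with control replicate 1 highest and CKO replicate 1 lowest of all 6 libraries. *Prrx2*, the paralog of *Prrx1*, was at 1133, 69.2 and 60.3 CPM in control and 44.8, 111 and 122 CPM in CKO. *Usp49*, a deubiquitinase gene, was at 389, 0.669 and 0.205 CPM in control and 3.09, 0.596 and 0.549 CPM in CKO, so nearly all its transcripts were in control replicate 1. *Ifi27l2a*, an interferon-inducible gene, was instead lower in replicates 2 and 3 alone, at 344, 1865 and 2106 CPM in control and 387, 432 and 436 CPM in CKO. Of the 38 called genes, 34 had the same sign in both pairs, all 12 that rose and 22 that fell. At least 2-fold in both pairs were 7 of those that rose and 5 of those that fell.

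Among the 14 genes at 100 CPM or more that were at least 2-fold different in both pairs, 8 were also called with the block. The higher ones were *Prg4*, *Rgcc*, *Has1*, *Timp1* and *Pla1a*. The lower ones included 6 with no call, among them the fibulin gene *Fbln1*, the bone proteoglycan gene *Ogn*, the dipeptidase gene *Dpep1*, *Nrep* and *Ahnak2*. *Ogn*, also named osteoglycin, was at 393, 611 and 638 CPM in control and 177, 314 and 311 CPM in CKO (adjusted p = 0.188). *Fbln1*, an elastic fibre glycoprotein, was at 285, 408 and 425 CPM in control and 119, 210.1 and 205 CPM in CKO (adjusted p = 0.357). Both were lower in every CKO library than in every control library.

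The interferon response is the set of genes that interferons switch on, among them antiviral enzymes and the large GTPases that attack parasite vacuoles. Of 22 measured genes of the list, 8 were higher and 2 lower in both pairs, 12 differed in sign, and none passed the blocked test. *Ifi27l2a*, described above, is also interferon-inducible but not on this list, and it fell. At least 2-fold higher in both pairs were 5, among them *Oas1a*, *Igtp*, *Iigp1* and *Irgm1*, beside 1.72% of all measured genes, of which 27.5% were lower in both pairs. The list's median log2 ratio was 1.22 in the replicate 1 pair and 0.38 in the summed pair, and the share higher in both pairs was 36.4%, beside 25.5% of all measured genes. *Igtp*, an interferon-inducible GTPase, was at 41.6, 89.6 and 76.7 CPM in control and 97.9, 223 and 237 CPM in CKO.

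*Iigp1*, a GTPase of the same family, was at 5.5, 143 and 137 CPM in control and 46.9, 328 and 331 CPM in CKO. *Oas1a*, which makes the 2-5A messenger that activates RNase L, was at 3.93, 9.7 and 13.1 CPM in control and 21.1, 36.3 and 38.97 CPM in CKO. In each of these genes every CKO library was above the control of its number. *Iigp1* and *Oas1a* were under 10 CPM in control replicate 1, so that pair counts as measured only through CKO. *Isg15*, a ubiquitin-like modifier, was instead at 91.1, 93.6 and 95.3 CPM in control and 60.8, 70.6 and 74.5 CPM in CKO. *Gbp3* was at 53.4, 53.8 and 64.2 CPM in control and 4.64, 53.6 and 59.8 CPM in CKO, a difference in the replicate 1 pair alone. *Ifi44* and *Ifi47* were at least 2-fold different in opposite directions, *Ifi47* at 119, 29.8 and 30.3 CPM in control and 6.18, 116 and 116 CPM in CKO. *Gbp6*, another GTPase, was at 0 CPM in replicate 1 of both genotypes and at 1.67 and 5.73 CPM in control, compared with 29.2 and 27.8 CPM in CKO, replicates 2 and 3.

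The upstream sequences of *Oas1a* (chr5:120907526-120907775, minus strand) and *Igtp* (chr11:58199306-58199555, plus strand) are shown since both were at least 2-fold higher in both pairs and hold motifs of the interferon pathway (RefSeq, GRCm38.p6, 250 bases before the start). Capitals mark the interferon-stimulated response element GAAANNGAAA and the gamma-activated site TTCNNNGAA.

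Oas1a: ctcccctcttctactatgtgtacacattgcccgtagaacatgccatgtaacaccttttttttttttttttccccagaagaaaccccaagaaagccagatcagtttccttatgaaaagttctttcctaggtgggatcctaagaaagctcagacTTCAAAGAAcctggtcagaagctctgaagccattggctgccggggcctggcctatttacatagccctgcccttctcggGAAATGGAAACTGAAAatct

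Igtp: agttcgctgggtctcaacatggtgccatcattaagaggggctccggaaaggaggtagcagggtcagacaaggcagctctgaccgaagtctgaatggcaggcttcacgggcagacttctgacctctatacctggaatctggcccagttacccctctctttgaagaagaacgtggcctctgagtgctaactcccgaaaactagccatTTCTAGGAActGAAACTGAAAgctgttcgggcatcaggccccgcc

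Each element was searched on both strands as exact letters, with the third motif AP-1 as TGANTCA, and matches of the first element may overlap each other. In *Oas1a* 2 overlapping matches of the first element ended 5 and 11 bases before the start, and in *Igtp* 1 match ended 25 bases before it. The first element was found in 3.46% of all 27025 upstream sequences and in 17 of the 25 interferon genes with a sequence (68%). Among genes at least 2-fold higher in both pairs, 5 of 88 with a sequence held it (5.68%), compared with 2 of 113 lower genes (1.77%) and 3.39% of measured genes. The gamma-activated site was found in 8.13% of all upstream sequences, 6.77% of measured genes, 9 of 88 higher genes (10.2%) and 4 of 113 lower genes (3.54%). AP-1 was found in 7.82% of all, 5.28% of measured genes, 9 of 88 higher genes (10.2%) and 5 of 113 lower genes (4.42%). A match is a description of the letters in this window and not of a bound site. At the *Oas1a* start, an ATAC-seq peak was present in 1 of 3 control and all 3 CKO libraries, and at *Igtp* in all 6.

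Antigen presentation genes load peptides on MHC molecules. Of 15 measured, 10 were higher and 1 was lower in both pairs, 3 of them at least 2-fold higher, and the median log2 ratios were 1.31 and 0.32. Over all measured genes 25.5% were higher, 27.5% lower and 1.72% at least 2-fold higher in both pairs, with medians of 0.02 and -0.03, and these shares are the background for every list below. *B2m*, the light chain of class I molecules, was at 353, 3434 and 3455 CPM in control and 1026, 3619 and 3578 CPM in CKO and rose by 0.76 ± 0.18 (SE; adjusted p = 0.00845), almost all of it in the replicate 1 pair. *H2-D1*, a class I heavy chain, was at 785, 1366 and 1425 CPM in control and 1943, 1728 and 1849.960 CPM in CKO and rose by 0.80 ± 0.20 (SE; adjusted p = 0.0209). The 2-fold genes were *Cd74*, the invariant chain of class II molecules, *H2-Q6* and *H2-Q7*. *Cd74* was at 7.07, 4.35 and 1.02 CPM in control and 109, 19.7 and 17.4 CPM in CKO. It was below 10 CPM in every control library, so it counts as measured only through its CKO level. *H2-Q6* and *H2-Q7* are near-identical copies whose reads may be shared, and their ratios are uncertain for that reason. *H2-T23* went the other way, with ratios of -0.33 and -1.38.

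*Cd74* is abundant in macrophages and B cells, so the immune markers were read beside it. The 12 myeloid markers summed to 15.7, 44.8 and 41.7 CPM in control and 35.0, 33.7 and 26.9 CPM in CKO, with *Cd68* holding the most counts and *C1qa* and *C1qc* at 0 CPM in all 6 libraries. The 8 lymphoid markers summed to 13.3, 0.669 and 1.23 CPM in control and 10.8, 19.4 and 13.4 CPM in CKO, with *Cd79a* holding the most counts and *Cd3e*, *Cd3d*, *Cd79b* and *Ms4a1* among those at 0. *Lyz2*, a lysozyme of myeloid cells, was at 4.71, 0.334 and 0.205 CPM in control and 25.2, 7.75 and 7.32 CPM in CKO. *Cd68* went the other way, at 2.36, 21.1 and 22.5 CPM in control and 1.55, 6.85 and 6.40 CPM in CKO. The part of such cells in the antigen presentation genes was not tested.

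The list of chemokines, cytokines and NF-kB targets holds secreted signals together with intracellular regulators, enzymes and adhesion receptors that inflammation induces. Of 26 measured, 16 were higher in both pairs (61.5%) and 1 was lower. Of 36 tested, 5 rose, beside 0.101% of all genes tested: *Slpi*, *Has1*, *Timp1*, *Hbegf* and *Cxcl14*. *Has1* and *Hbegf* are also on the synovial list, and both lists were chosen with earlier results of these data known. The median log2 ratio was 0.89 in the replicate 1 pair and 0.73 in the summed pair. *Slpi*, *Has1*, *Timp1*, *Cx3cl1* and *Ccl2* were at least 2-fold higher in both pairs. *Cx3cl1*, the membrane-bound chemokine fractalkine, was at 10.99, 6.69 and 8.38 CPM in control and 31.4, 36.1 and 34.6 CPM in CKO. *Ccl2*, which attracts monocytes, was at 49.5, 47.8 and 51.9 CPM in control and 148, 115 and 111 CPM in CKO, with no overlap between the groups (adjusted p = 0.803). The adhesion gene *Icam1* was lower in both pairs, at 56.5, 36.8 and 41.1 CPM in control and 9.79, 11.3 and 12.3 CPM in CKO. *Bcl3*, an atypical inhibitor of NF-kB, was at 11.8, 19.1 and 17.4 CPM in control and 21.1, 46.2 and 41.9 CPM in CKO, and the interferon-induced chemokine gene *Cxcl9* was at 10.99, 34.4 and 36.6 and 21.1, 80.7 and 80.7 CPM. The stromal chemokine gene *Cxcl12* was at 325, 793 and 789 CPM in control and 612, 911 and 902 CPM in CKO.

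The p53 pathway halts the cell cycle or starts cell death after DNA damage. Of 15 measured targets, 7 were higher (46.7%, beside 25.5% of all measured genes) and 1 was lower in both pairs, the median log2 ratios were 0.95 and 0.45, and none passed the blocked test. *Cdkn1a*, which encodes the cell cycle inhibitor p21, was at 1003, 818 and 778 CPM in control and 1197, 1534 and 1519 CPM in CKO. The groups did not overlap, but most of the difference was in the summed pair (0.26 and 0.94; log2 fold change of 0.57 ± 0.22, adjusted p = 0.591). *Gdf15*, a circulating stress cytokine, was at 30.6, 6.35 and 5.11 CPM in control and 109.7, 35.5 and 35.5 CPM in CKO and was the only target at least 2-fold higher in both pairs (adjusted p = 0.591). *Mdm2*, the ubiquitin ligase that degrades p53, was at 14.1, 23.4 and 32.5 CPM in control and 46.9, 40.2 and 45.9 CPM in CKO. *Btg2*, an antiproliferative gene, was lower in both pairs at -0.09 and -0.34. Of the CDK inhibitors, 5 were measured, with *Cdkn1a* and *Cdkn2c* higher and *Cdkn1b* and *Cdkn1c* lower in both pairs, none of them at least 2-fold.

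Of 18 measured genes of the BCL2 family, caspases and death receptors, 8 were higher and 3 lower in both pairs, the median log2 ratios were 0.67 and 0.14, and none passed the blocked test. *Bax*, which permeabilises the outer mitochondrial membrane, was at 159, 140.1 and 119 CPM in control and 307, 215 and 221 CPM in CKO, with no overlap. *Bbc3*, the p53-induced activator of *Bax*, was at 32.2, 10.4 and 11.5 CPM in control and 66.98, 18.5 and 13.5 CPM in CKO. The kinase gene *Ripk1* was at 7.07, 14.7 and 16.6 CPM in control and 15.5, 39.3 and 35.9 CPM in CKO, at least 2-fold higher in both pairs. *Tnfrsf1a*, the main TNF receptor, was at 111, 119.7 and 131 CPM in control and 240.1, 169.5 and 173 CPM in CKO. The survival genes *Bcl2* and *Xiap* and the killer gene *Bad* were lower in both pairs, with ratios of -2.29 and -0.20, -0.61 and -0.37, and -0.72 and -0.07.

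The unfolded protein response raises chaperones when proteins misfold in the endoplasmic reticulum. Of 20 measured genes, 12 were higher (60%) and 1 was lower in both pairs, the median log2 ratios were 0.58 and 0.39, and none was 2-fold or passed the blocked test. *Hspa5*, the chaperone BiP, was at 598, 583 and 584 CPM in control and 1018, 881 and 862 CPM in CKO. *Creld2* was at 90.3, 103 and 100.004 CPM in control and 155, 156 and 156 CPM in CKO, and *Txndc5*, a disulfide isomerase, was at 226, 149.8 and 164 and 384, 261 and 276 CPM. Each of these was higher in all CKO than in all control libraries. *Herpud1* was the exception, at 347, 302 and 323 CPM in control and 289, 259 and 251 CPM in CKO.

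Targets of ATF4, the transcription factor of amino acid shortage and mitochondrial stress, gave a like picture, with 8 of 14 higher (57.1%) and 1 lower in both pairs and medians of 0.58 and 0.49. *Aldh18a1*, a proline synthesis enzyme, was at 1.57, 21.7 and 17.4 CPM in control and 68.5, 83.1 and 45.7 CPM in CKO. *Mthfd2*, a mitochondrial folate enzyme, was at 12.6, 8.02 and 7.16 CPM in control and 32.97, 31.9 and 29.8 CPM in CKO. *Asns*, asparagine synthetase, was at 4.71, 13.7 and 18.6 CPM in control and 18.03, 30.99 and 36.04 CPM in CKO. *Phgdh*, a serine synthesis enzyme of the same list, was at least 2-fold different in opposite directions (-1.13 and 1.42), and *Ppp1r15a* was lower in both (-0.82 and -0.13).

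**Figure D4:**
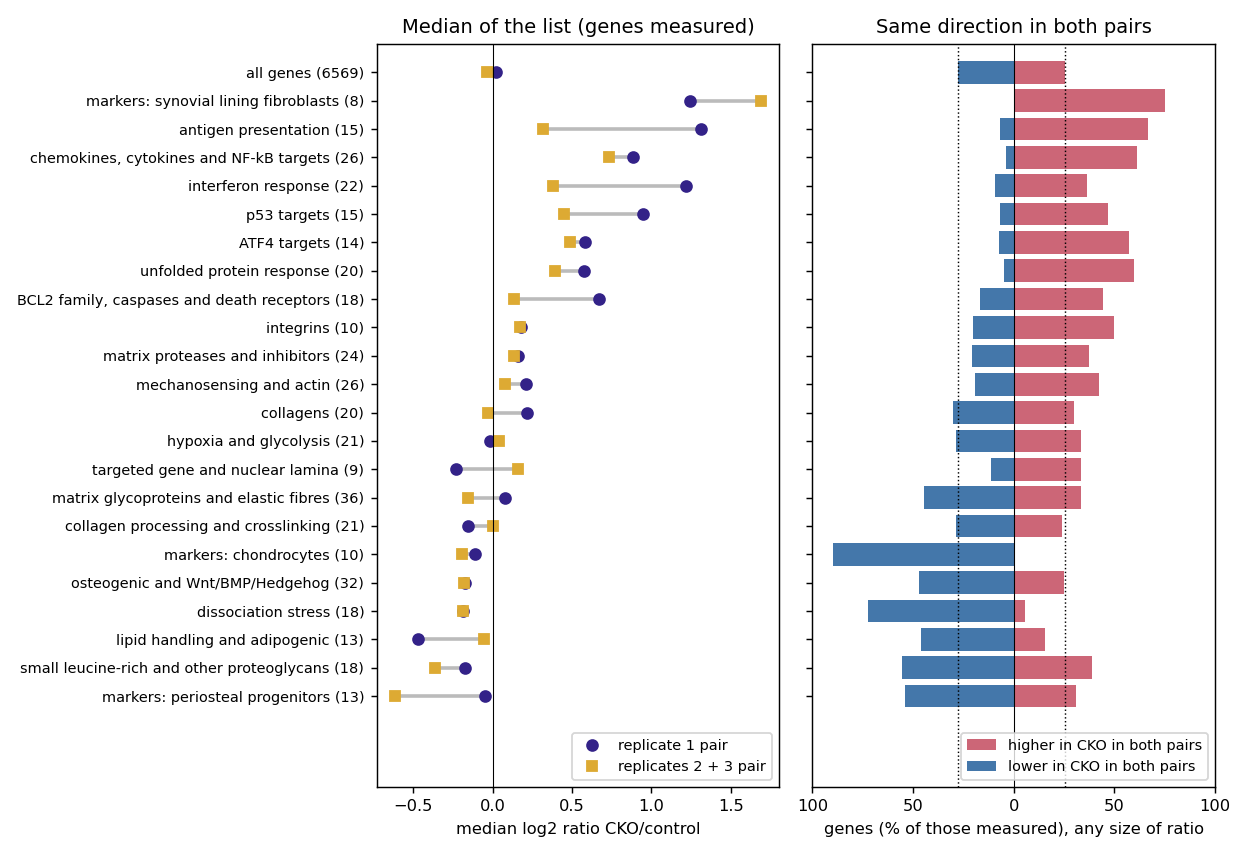
Left, median log2 ratio of CKO to control in the replicate 1 pair (circles) and the summed pair (squares) for each gene list with at least 8 measured genes (their number in parentheses). Right, percentage of the measured genes that were higher (red) or lower (blue) in CKO in both pairs, with dotted lines at the 25.5% and 27.5% of all measured genes. Among the lists drawn, 75% of synovial lining genes were higher and 9 of 10 chondrocyte genes were lower in both pairs.

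Extracellular matrix genes had members in both directions in each class. Small leucine-rich and other proteoglycans were lower in both pairs for 10 of 18 measured genes and higher for 7. Beside *Dcn* and *Ogn*, *Omd*, an osteoblast-associated proteoglycan, was at 113, 109.7 and 117 CPM in control and 43.8, 75.1 and 65.3 CPM in CKO, and the basement membrane gene *Hspg2* was at 227, 183 and 193 and 97.9, 146 and 131 CPM. *Aspn*, which encodes asporin, was at 1325, 701 and 817 CPM in control and 971, 470.2 and 454 CPM in CKO. On the higher side were *Prg4*, the large hyaluronan-binding *Vcan* and the cell surface syndecans. *Vcan* was at 36.1, 21.1 and 28.8 CPM in control and 174, 49.5 and 49.2 CPM in CKO. *Sdc1* was at 21.98, 41.5 and 40.1 CPM in control and 64.4, 92.1 and 92.03 CPM in CKO, and *Sdc3* at 14.1, 8.69 and 6.75 and 36.6, 18.2 and 15.003 CPM.

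Collagens showed no common direction, with 6 of 20 higher and 6 lower in both pairs and no gene called. The fibrillar genes of bone and skin were split: *Col1a1* was at 5314, 1882 and 1779 CPM in control and 6635, 2331 and 2189.9 CPM in CKO, and *Col1a2* at 2144, 2414 and 2549 CPM in control and 1550.3, 1984 and 2079 CPM in CKO. These are the chains of the same trimer, and their ratios had opposite signs. *Col5a1*, which sets fibril diameter, was at 315, 203 and 209 CPM in control and 122, 157 and 159 CPM in CKO. *Col5a3* was at 65.95, 62.2 and 56.4 CPM in control and 249, 124 and 120.2 CPM in CKO, at least 2-fold higher in both pairs. *Col3a1* had log2 ratios of 0.05 and 0.40, and *Col15a1* and *Col18a1*, of basement membrane zones, had 3.76 and 0.34, and -0.91 and -0.64.

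Of 36 measured matrix glycoproteins, 12 were higher and 16 lower in both pairs. Of 40 tested, 1 rose (*Fn1*) and 1 fell (*Igfbp6*), beside 0.101% and 0.219% of all genes tested. Tenascin C (*Tnc*), a glycoprotein of injured and growing tissue, was at 35.3, 53.8 and 46.2 CPM in control and 99.4, 84.02 and 78.5 CPM in CKO. *Tnn*, another tenascin, was at 10.99, 82.9 and 77.9 CPM in control and 8.24, 7.45 and 9.88 CPM in CKO, so it was far lower in replicates 2 and 3 and close to equal in replicate 1. *Matn4*, an adaptor of collagen fibrils, was at 16.5, 25.4 and 22.3 CPM in control and 34.004, 55.7 and 50.5 CPM in CKO. *Smoc2*, a calcium-binding matricellular gene, was at 99.7, 769 and 804 CPM in control and 63.4, 463 and 446 CPM in CKO. *Postn* was at 88.7, 88.6 and 97.3 CPM in control and 379, 123 and 129 CPM in CKO, a difference seen mainly in the replicate 1 pair. *Sparc*, which binds collagen and calcium, had ratios of -0.07 and -0.02.

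Collagen processing genes (5 of 21 higher, 6 lower), matrix proteases and inhibitors (9 of 24 higher, 5 lower) and integrins (5 of 10 higher, 2 lower) had medians between -0.16 and 0.18 in both pairs. The collagen chaperone gene *Serpinh1* was at 904, 479 and 448 CPM in control and 1241, 742 and 665 CPM in CKO. *Pcolce2*, an enhancer of procollagen cleavage, was at 779, 949 and 943 CPM in control and 504, 659.7 and 662 CPM in CKO. *Timp2*, another metalloproteinase inhibitor, was at 1625, 1476 and 1591 CPM in control and 941, 1310.4 and 1335 CPM in CKO, opposite to *Timp1*. *Itga5*, the fibronectin receptor chain, was at 58.1, 46.5 and 40.3 CPM in control and 69.6, 144 and 128 CPM in CKO. *Itga11*, a collagen receptor chain, was at 67.5, 86.3 and 88.1 CPM in control and 36.1, 47.1 and 47.8 CPM in CKO, and the groups did not overlap. *Itga2* was at 0 CPM in replicate 1 of both genotypes and at 20.4 and 32.7 CPM in control, compared with 1.49 and 2.196 CPM in CKO, replicates 2 and 3.

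Of 26 measured mechanosensing and actin genes, 11 were higher and 5 lower in both pairs, and none passed the blocked test. *Tpm2*, a tropomyosin of contractile filaments, was at 2.36, 38.1 and 34.4 CPM in control and 24.7, 93.6 and 102 CPM in CKO. *Ccn4*, a matricellular gene downstream of Wnt, was at 4.71, 9.36 and 8.59 CPM in control and 30.9, 22.9 and 21.96 CPM in CKO. *Tln1*, which links integrins to actin, was at 177, 166 and 165 CPM in control and 113, 108 and 94.6 CPM in CKO, with no overlap. The kinase gene *Lats2*, a brake on YAP, was at 47.9, 44.5 and 44.6 CPM in control and 7.73, 25.9 and 23.4 CPM in CKO. The YAP target *Ccn1* was at 1113, 1153 and 968 CPM in control and 743, 1032 and 878 CPM in CKO.

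Osteogenic factors and Wnt, BMP and Hedgehog genes were lower in both pairs for 15 of 32 and higher for 8, with medians of -0.18 in each. *Bmp4*, a bone-inducing ligand, was at 203, 99.96 and 111 CPM in control and 32.97, 43.8 and 43.5 CPM in CKO, with no overlap, and was the only member at least 2-fold lower in both pairs. *Dkk2*, a modulator of Wnt, was at 136, 159 and 175 CPM in control and 28.9, 89.1 and 102 CPM in CKO. *Gas1*, a Hedgehog co-receptor, was at 501, 924 and 855 CPM in control and 268, 664 and 664 CPM in CKO, and *Lrp4*, a receptor of sclerostin, was at 69.1, 33.8 and 28.4 and 23.2, 19.7 and 20.7 CPM. *Smad7*, an inhibitor of TGF-beta and BMP signals, was at 7.85, 13.04 and 10.6 CPM in control and 19.1, 33.4 and 31.7 CPM in CKO. The Wnt amplifier gene *Rspo2* had ratios of 0.81 and 0.93, and *Snai2*, a mesenchymal transcription factor, was at 31.4, 32.1 and 33.1 CPM in control and 57.2, 48.9 and 56.4 CPM in CKO.

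Lipid handling and adipogenic genes were lower in both pairs for 6 of 13 and higher for 2. *Lpl*, lipoprotein lipase, was at 125, 205 and 194 CPM in control and 58.7, 151 and 162 CPM in CKO, and *Scd1*, a fatty acid desaturase, was at 65.95, 82.9 and 80.4 and 31.4, 44.99 and 42.997 CPM. *Adipoq*, the adipocyte hormone adiponectin, was at 13.3, 25.7 and 26.8 CPM in control and 10.8, 6.26 and 5.85 CPM in CKO. The nuclear lamina list, 9 genes measured, had 3 higher and 1 lower in both pairs. *Lmna*, which encodes lamin A and C, was at 772, 1211 and 1229 CPM in control and 1005, 1486 and 1458 CPM in CKO, with log2 ratios of 0.38 and 0.26. *Fnta*, a farnesyltransferase subunit, was at 188, 84.6 and 88.6 CPM in control and 60.3, 70.9 and 73.7 CPM in CKO. Hypoxia and glycolysis genes were even, with 7 of 21 higher and 6 lower, and of the proliferation genes 3 of 28 were measured.

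Genes that rise when tissue is dissociated were lower in both pairs for 13 of 18 measured and higher for 1, with a median log2 ratio of -0.19 in each pair. *Ier2*, an immediate early gene, was at 2449, 1089.5 and 1045 CPM in control and 1726, 775 and 755 CPM in CKO, *Jun* at 1056, 1271 and 1226 and 845, 1017 and 1001 CPM, and *Egr1* at 678, 761 and 745 and 372, 622 and 562 CPM. *Atf3* was the 1 higher gene, at 123, 222 and 213 CPM in control and 197, 277 and 272 CPM in CKO. None of the 18 was 2-fold or passed the blocked test. The part of this response in the other differences was not tested.

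The 15 genes with the largest ratios that held in both pairs are given for each direction. Of those higher in CKO, *Nt5dc2*, a putative nucleotidase gene, was at 6.28, 5.68 and 4.5 CPM in control and 85.01, 54.2 and 44.6 CPM in CKO. The transcription factor gene *Barx1*, of joint-forming mesenchyme, was at 7.07, 9.36 and 8.38 CPM in control and 40.2, 41.1 and 39.2 CPM in CKO. In both genes every CKO library was above every control. The endothelin receptor gene *Ednrb* was at 2.36, 4.01 and 3.48 CPM in control and 20.1, 18.2 and 22.3 CPM in CKO. *Nab2*, a corepressor of EGR factors, was at 5.5, 3.34 and 5.93 CPM in control and 26.3, 33.1 and 29.8 CPM in CKO. The others included *Slpi*, *Cd74*, *Gm2694*, *Lrrc28*, *Ago1*, *Dusp8*, *Chchd5*, *F830016B08Rik*, *Bop1* and *Col22a1*, and of the 15 only *Slpi* passed the blocked test.

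Of the 15 lower in CKO, *Lag3*, a checkpoint receptor of T cells, was at 45.5, 22.1 and 20.9 CPM in control and 2.06, 2.98 and 2.01 CPM in CKO. *Npr1*, the receptor of atrial natriuretic peptide, was at 128, 78.9 and 65.6 CPM in control and 20.1, 18.5 and 15.2 CPM in CKO. *S100g*, the calcium-binding protein calbindin-D9k, was at 133, 17.1 and 22.7 CPM in control and 4.64, 5.07 and 3.11 CPM in CKO. For these genes the 3 CKO libraries lay below the 3 controls. *Lag3* and *S100g* were under 10 CPM in every CKO library and count as measured only through their control level. *Kmt2a*, a histone H3 lysine 4 methyltransferase, was at 31.4, 73.9 and 92.6 CPM in control and 3.09, 19.96 and 20.7 CPM in CKO, and the stress kinase gene *Mapk12* was at 52.6, 42.5 and 42.3 and 7.21, 10.4 and 9.7 CPM. *Scg3*, a granin of secretory granules, was at 89.5, 69.9 and 82.2 CPM in control and 4.64, 10.7 and 15.4 CPM in CKO. The others were *Slurp1*, *Vipr2*, *Sugp2*, *Zcchc4*, *AW554918*, *Gm10115*, *Gm45828*, *Gm765* and *9430078K24Rik*, of which only *Slurp1* passed the blocked test.

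Marker lists of cell types were summed in each library. The 14 periosteal progenitor markers summed to 29692, 31118 and 33132 CPM in control replicates 1, 2 and 3 and to 16472, 21211 and 21847 CPM in the CKO replicates, with *Dcn* holding the most counts. All 3 CKO sums lay below all 3 control sums. Of 13 measured markers, 3 fell (*Dcn*, *Igfbp6* and *Prrx1*), beside 0.219% of all genes tested, while 4 were higher and 7 lower in both pairs. The 10 chondrocyte markers summed to 12775, 7462 and 6619 CPM in control and 11619, 6201 and 5749 CPM in CKO. *Col2a1*, the collagen of cartilage, was at 4267, 2426 and 2079 CPM in control and 3881, 2029 and 1874 CPM in CKO, and 9 of 10 markers were lower in both pairs, none at least 2-fold. The 8 osteoblast markers, led by *Ibsp*, summed to 9544, 3463 and 3114 CPM in control and 9237, 2987 and 2798 CPM in CKO. Cartilage and bone transcripts were thus present in all sorted libraries and were highest in replicate 1 of both genotypes.

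The 7 erythroid markers, led by *Hbb-bs*, summed to 22.8, 1992 and 1872 CPM in control and 155, 1349 and 1270.1 CPM in CKO, with *Slc4a1* at 0. The 9 skeletal muscle markers, led by *Mylpf*, summed to 10.2, 71.5 and 68.5 CPM in control and 56.2, 54.2 and 58.4 CPM in CKO, with *Myh1*, *Tnnc2*, *Pax7* and *Myod1* at 0. The 8 endothelial markers, led by *Plvap*, summed to 114, 151 and 145 CPM in control and 125, 206 and 201 CPM in CKO, and the 8 pericyte and smooth muscle markers, led by *Rgs5*, to 148, 218 and 235 CPM in control and 167, 366 and 358 CPM in CKO. *Plvap* was higher in both pairs and *Egfl7*, an endothelial gene of the same list, was at least 2-fold lower in both. The 7 tenocyte markers, led by *Egr1*, summed to 1453, 1605 and 1587 CPM in control and 1011, 1333 and 1283 CPM in CKO, and the 7 marrow stromal markers, led by *Cxcl12*, to 462, 1089.9 and 1096 CPM in control and 812, 1085 and 1059.5 CPM in CKO. The Schwann cell sum, led by *S100b*, was 58.9, 190.2 and 194 CPM in control and 163, 196 and 206 CPM in CKO. The keratinocyte sum, led by *Krt10*, lay between 40.8 and 81.0 CPM in all libraries with *Krt5* at 0, and the mast cell and basophil sum, led by *Mcpt8*, between 0 and 23.1 CPM with *Mcpt4*, *Cma1*, *Tpsb2* and *Ms4a2* at 0. The part of any of these cells in the differences was not tested.

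**Figure D5:**
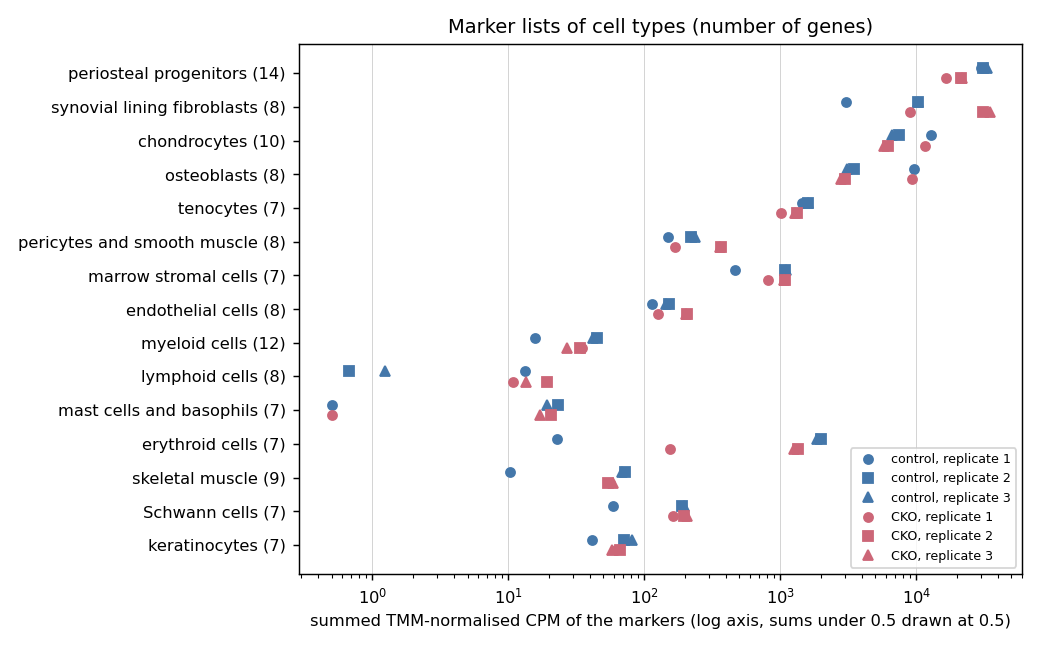
Summed TMM-normalised CPM of the markers of each cell type (x axis, log scale, sums under 0.5 drawn at 0.5) in the 3 control (blue) and 3 CKO (red) pSSPC libraries, with the number of markers in parentheses. The periosteal progenitor sums are lower and the synovial lining sums higher in CKO within each replicate number, and the erythroid sums of replicate 1 lie far below those of replicates 2 and 3.

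Growth plate progenitors (gpSSPCs, Prx1-Ai9+ CD73+ cells from mice of the same age and genotypes) were used to ask which of these differences were larger or smaller in pSSPCs. The genotype effect differed between the populations for 7 of 13173 genes with the replicate block (0.0531%) and for none without it (0.0%; smallest adjusted p of 1, 125 genes at an unadjusted p under 0.05). *Prg4* rose in pSSPCs, whereas its log2 ratios in gpSSPCs were 0.31 and 0.40, and the difference in effect was 1.32 ± 0.16 (SE; adjusted p = 7.89e-05). *Gsn*, lower in both pSSPC pairs, had ratios of -0.03 and -0.01 in gpSSPCs, with a difference in effect of -0.94 ± 0.15 (SE; adjusted p = 0.00295). *Fn1* had ratios of -0.56 and -0.20 in gpSSPCs and a difference of 1.20 ± 0.22 (SE; adjusted p = 0.0167). For the other 4 genes, *Serpina1a*, *Serpina1d*, *Cst3* and *Col2a1*, the larger effect was in gpSSPCs. *Rgcc*, *Has1* and *Timp1* had no call for a difference, with estimates of 1.07 ± 0.25, 0.97 ± 0.39 and 0.55 ± 0.35 (SE) on the log2 scale. Of the 113 genes at least 2-fold higher in both pSSPC pairs, 23 (20.4%) were also higher in both gpSSPC pairs, beside 26.4% of all measured genes. Of the 145 lower genes, 40 (27.6%) were also lower in both, beside 24.8% of all measured genes.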

How the data were processed

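RNA-seq counts of 6 pSSPC libraries were analysed, with those of 6 gpSSPC libraries and the peak lists of 6 pSSPC ATAC-seq libraries for comparison. The authors aligned reads to mm10 with STAR, counted them per gene with HTSeq, removed duplicates by molecular identifiers and deposited whole-number counts without normalization. For the ATAC-seq peak lists the authors called peaks in each library with MACS2 and deposited a −log10 q-value for each peak. Whether counting used strand is not given in the sources used here, so overlapping genes on opposite strands cannot be told apart.

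Of 53801 genes, 53620 matched a symbol. Replicates 2 and 3 were summed, a departure from 3 samples per group. Genes were tested in R 4.3.3 with edgeR 4.0.16 (TMM, filterByExpr, quasi-likelihood, Benjamini-Hochberg adjustment) on 4 samples (2 residual degrees of freedom), with the replicate block as an alternative, and DESeq2 1.42.0 as another. The difference in genotype effect between pSSPCs and gpSSPCs was tested as an interaction over 13173 genes in a joint fit of both populations, with gpSSPC replicates 2 and 3 also summed. Scripts were tested on simulated data. The pairing comes from the replicate numbers in the labels, and was checked: control and CKO libraries of the same number deviated together from their group means (r = 0.442, 0.436 and 0.428 over 7609 genes). Replicates 2 and 3 correlated nearly as well when crossed (0.417 and 0.413), so the check separates replicate 1 from the others and does not tell 2 from 3. Pair ratios used genes with a mean of at least 10 CPM in each pair and a pseudocount of 1 CPM. The mean is over control and CKO, so a gene scarce in 1 genotype can pass through the other. The 2-fold counts include such genes. CPM is not scaled for gene length, so a gene that holds the most counts need not have the most molecules.

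An ATAC-seq peak was assigned to a gene when it overlapped the 500 bases on either side of a transcript start (GENCODE vM21) by at least 1 base, a step added after the data were seen. Upstream sequences came from RefSeq.

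The members and all 21 gene and 17 marker lists were chosen with earlier results of these data known. Named are *Zmpste24* and *Ly6a*, 18 genes the study names, and the 15 genes with the largest ratios in each direction in both pairs. Also named are, per list, up to 4 genes in each direction and the one ranked as most abundant. For the myeloid, lymphoid and chondrocyte markers, the gene so ranked was not the one with the most counts. Genes outside this rule were chosen after their values were seen. A few genes the rule names are not reported here.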

Additional observations from a re-analysis of the deposited data

Results flagged for a closer look

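With the replicate block, edgeR's interaction test gave a different genotype effect in pSSPCs and gpSSPCs for 7 genes, which marks them for a closer look, stated here as the effect in pSSPCs minus that in gpSSPCs on the log2 scale. Without the block none of the 7 passed, so each call rests on the pairing of libraries. *Prg4* had a difference of 1.32 ± 0.16 (SE; adjusted p = 7.89e-05), and was at 1168, 16779.7 and 18701 CPM in control and 1445, 21982 and 24783 CPM in CKO gpSSPCs, where replicate 1 lay far below the others in both genotypes. *Fn1* had a difference of 1.2 ± 0.22 (SE; adjusted p = 0.0167), and was at 3629, 3189 and 3025 CPM in control and 2459, 2742 and 2661 CPM in CKO gpSSPCs. *Gsn* had a difference of -0.938 ± 0.15 (SE; adjusted p = 0.00295), and was at 7208, 7964 and 7369 CPM in control and 7056, 7918 and 7299 CPM in CKO gpSSPCs.

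For the remaining genes the larger effect was in gpSSPCs. *Col2a1*, the collagen of cartilage, had a difference of 0.993 ± 0.17 (SE; adjusted p = 0.00847), with ratios of -0.14 and -0.19 in pSSPCs and 24085, 15285 and 15045 CPM in control and 11028, 6403 and 6034 CPM in CKO gpSSPCs. *Cst3* had a difference of -1.21 ± 0.17 (SE; adjusted p = 0.000337), with 13744, 22154 and 23155 CPM in control and 29051, 31584 and 33746 CPM in CKO gpSSPCs, although it was lower in both pSSPC pairs. *Serpina1d* had a difference of -2.07 ± 0.26 (SE; adjusted p = 7.89e-05) and *Serpina1a* of -1.66 ± 0.28 (SE; adjusted p = 0.00428). These 2 genes are near-identical copies of the alpha-1 antitrypsin gene whose reads may be shared, so their separate values are uncertain. *Serpina1d* was at 1077, 1921 and 2059 CPM in control and 5023, 5011 and 5662 CPM in CKO gpSSPCs.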

How the results depend on the processing

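With the replicate block, adjusted calls in pSSPCs were 12 higher and 26 lower, compared with 0 without it. They were 2 and 3 with each library as a sample and the replicate block, and 1 and 4 with no filter on low counts. Leaving out 1 replicate number gave 0 to 4066 higher and 0 to 4209 lower. The upper ends come from leaving out replicate 1, when the near-identical replicates 2 and 3 are the only samples, and without replicate 2 or 3 no gene was called. Past the study's thresholds were 245 higher and 376 lower genes with the replicate block, 404 and 402 with each library as a sample, 940 and 903 with each library and the replicate block, 68 and 250 with DESeq2, 79 and 232 with no filter, 72 and 205 with both populations in 1 fit, and 32 to 4083 and 108 to 4175 with 1 replicate left out. Different effects in gpSSPCs were called for 7 genes with the replicate block, 2 with no filter, and 0 to 6866 with 1 replicate left out.

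Genes at least as different as the limit in both pairs were 361 higher, 436 lower and 648 discordant at 1.5-fold, and 31, 32 and 33 at 3-fold. At a minimum of 20 CPM they were 45, 85 and 74, at 100 CPM, added after the data were seen, 5, 9 and 1, and at 5 CPM 198 higher and 315 discordant. A pseudocount of 5 CPM gave 73 higher and 106 discordant. Leaving out 1 replicate gave 106 to 343 higher, 146 to 535 lower and 0 to 204 discordant.

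Of 201 named genes fitted, 7 changed the sign of their log2 fold change under at least 1 setting. Most were named for having the same sign in both pairs, so few could change, and the count says little about other genes. *Lipa* and *Prrx2*, whose pairs went opposite ways, are outside the naming rule. *Krt10* became -0.151 with the replicate block, -0.161 with each library, -0.323 with each library and the replicate block, -0.0164 with DESeq2 size factors, -0.0172 with DESeq2, -0.773 to 0.0918 with 1 replicate left out and -0.0158 with both populations. *Hbb-bs* became 0.555 with the replicate block, and *Ly6a* -0.00316 with size factors and -0.0032 with DESeq2. With 1 replicate left out, *Junb* ranged from -0.346 to 0.001, *Mylpf* from -0.469 to 1.73, *Pcna* from -0.545 to 0.336 and *Mcpt8* from -0.0454 to 0.126, and *Mcpt8* was -0.0161 with both populations. The cause was not tested.

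A limit is that each genotype has 2 samples, of which replicate 1 held 1333260 and 1875248 counts and fewer genes at equal depth. Genes under 30 CPM, most of the concordant ones, rest on few counts there.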
